A study of Mus musculus with 2 samples.

Results

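The genes described here are named for the proteins of the mitochondrial ribosome, and all but Mrps36 encode one. They were chosen by symbol, as every protein-coding gene of GENCODE M21 whose symbol begins with Mrpl or Mrps and a digit. The rule found 78 genes of the 21851 protein-coding genes with a start site in the basic annotation set, and it used no measured value. Open chromatin at these genes was mapped by DNase-seq, in which DNase I cuts accessible DNA in nuclei and dense cleavage marks promoters and enhancers. The tissue was the gastrocnemius, a muscle of the calf. The mice were males, 36 days old, of the hybrid strain B6CASTF1/J, a cross of C57BL/6J with CAST/EiJ. They formed 1 group of 2 libraries, here called replicate 1 and replicate 2, and no treatment, genotype or second tissue was set against it. The labels call the libraries biological replicates and number their animals differently, but give both the same donor identifier. That they came from separate animals is therefore not certain, and the spread between them may be technical. The extract protocol in the labels is one for isolating nuclei from tissue, so the signal pools muscle fibres with every other cell type of the muscle, and fewer open nuclei and less opening per nucleus cannot be told apart. The alleles of the parent strains were not separated in the values used.

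The mitochondrial ribosome makes the few proteins that mitochondrial DNA encodes, all of them membrane subunits of the respiratory chain and the ATP synthase. Its RNAs come from mitochondrial DNA, but each of its proteins is encoded in the nucleus, made in the cytosol and imported. Some of its proteins descend from those of bacterial ribosomes, and others are found in mitochondria only. NRF1 and GABP, an ETS factor, are known to bind promoters of many nuclear genes for mitochondrial proteins, and YY1 is a further factor known at such promoters in muscle.

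Promoters of 3 members are shown to place the motifs described below, from 200 bases before to 30 bases after the RefSeq start site. The sequences are RefSeq's for GRCm38.p6, the reference mouse genome, and not those of the hybrid strain. Capitals mark exact matches to a searched motif that lay in a footprint, a short stretch protected from cleavage, called in both libraries. A match counts as lying in a footprint if the footprint covers at least 50% of its bases. Mrpl17 (chr7:105811058-105811287, minus strand) had the highest promoter of the members in replicate 1 and holds CGCATGCG, the NRF1 motif, beside its start site. Mrpl43 (chr19:45006413-45006642, minus strand) holds a pair of CCGGAAG matches, the ETS motif. Mrpl49 (chr19:6057726-6057955, minus strand) holds TGACGTCA, the cyclic AMP response element (CRE). All 3 also hold GGGCGG, the SP/KLF motif, or its reverse complement.
Mrpl17: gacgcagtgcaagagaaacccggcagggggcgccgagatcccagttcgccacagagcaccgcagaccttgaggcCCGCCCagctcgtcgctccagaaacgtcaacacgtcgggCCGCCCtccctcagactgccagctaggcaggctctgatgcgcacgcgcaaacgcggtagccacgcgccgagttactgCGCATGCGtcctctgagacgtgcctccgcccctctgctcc
Mrpl43: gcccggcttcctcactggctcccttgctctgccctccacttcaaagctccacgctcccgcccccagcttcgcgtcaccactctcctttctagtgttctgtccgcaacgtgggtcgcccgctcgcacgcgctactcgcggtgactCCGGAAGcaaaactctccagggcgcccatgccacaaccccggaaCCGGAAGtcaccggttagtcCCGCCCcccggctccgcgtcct
Mrpl49: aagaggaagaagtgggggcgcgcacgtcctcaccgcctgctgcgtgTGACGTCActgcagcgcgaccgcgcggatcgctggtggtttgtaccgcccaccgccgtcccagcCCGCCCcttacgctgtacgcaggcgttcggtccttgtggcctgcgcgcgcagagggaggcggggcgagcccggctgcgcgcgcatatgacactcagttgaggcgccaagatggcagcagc

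The NRF1 motif lay in a footprint of both libraries at 6 members, shown with 10 bases on either side and the match in capitals. All 6 encode large-subunit proteins. The matches began at −27, −135, −10, −32, −86 and −124 bp from the start site in the order shown, where 0 is the annotated start. They lie at chr3:94443299-94443326 (plus strand), chr11:97041437-97041464 (plus strand), chr7:105811080-105811107 (minus strand), chr11:58171622-58171649 (plus strand), chr13:14613106-14613133 (minus strand) and chr16:84735351-84735378 (minus strand), and each is written on the gene's own strand.
Mrpl9: ggcgcagctgCGCATGCGcggggtcctt
Mrpl10: cccagctccaCGCATGCGcatagcggcc
Mrpl17: cgagttactgCGCATGCGtcctctgaga
Mrpl22: cctcggactgCGCATGCGtatagtcagc
Mrpl32: ttgacccttgCGCATGCGcaagaggggc
Mrpl39: aggagaggcgCGCATGCGcccccgcgtg

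The YY1 motif AAGATGGCG began 11 to 36 bp after the start site at 6 members. They lie at chr6:71823743-71823771 (minus strand), chr4:107066822-107066850 (minus strand), chr10:95501904-95501932 (minus strand), chr17:46111005-46111033 (plus strand), chr11:5707652-5707675 (minus strand) and chr13:99344790-99344818 (plus strand) and are shown in the same way, except that the stretch of Mrps24 stops at the end of the window searched.
Mrpl35: ggcaggctgcAAGATGGCGgcttccatct
Mrpl37: tgcacgggcaAAGATGGCGgcgtccaggt
Mrpl42: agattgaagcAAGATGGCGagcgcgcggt
Mrps18a: ggtgcgttccAAGATGGCGgccctcaggg
Mrps24: gcgccggcccAAGATGGCGtggtc
Mrps27: ggtgcgctccAAGATGGCGgctcccatgg

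The tissue label was checked against promoter peaks at marker genes. Peaks in both libraries were found at 7 of 8 muscle fibre genes (Ckm, Acta1, Des, Ttn, Mylpf, Ryr1 and Pygm), and Tnnt3 had one in replicate 1. They were also found at all 3 fibroblast genes, 1 of 3 endothelial genes, 1 of 3 satellite cell genes and 1 of 2 neuronal genes. The satellite cell genes Pax7 and Myf5 had one in replicate 2 only, and the endothelial gene Cdh5 had one in replicate 1 only. None of the 3 macrophage, 2 lymphocyte, 2 erythroid or 2 hepatocyte genes had one in either library. Replicate 1 had 50760 peaks and replicate 2 had 49230 in the shorter of the authors' lists for each library, which was used throughout. Each peak carries a signal value from the authors, here called its height. The number of reads behind it is unknown, and heights were ranked within a library only. Where a gene is given a pair of heights, the one of replicate 1 is followed by that of replicate 2.

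Every member, chosen by its Mrpl or Mrps symbol, had an open promoter in both libraries. A promoter peak, meaning a peak within 500 bp of a start site, was found in both libraries at 78 of 78 members, beside 54.2% of all protein-coding genes. The exact 95% interval for the members has a lower bound of 95.4%, and this interval covers counting error only. It treats the members as an independent sample. They are instead every gene the rule found, share the same libraries, and include Mrpl46 and Mrps11 with 1 common peak. In single libraries the shares were 78 of 78 members each, beside 55.8% of coding genes in replicate 1 and 57.1% in replicate 2. The members' promoters were rich in CG dinucleotides, with a median of 21 in the 300 bases around the RefSeq start (range 7 to 39, 69 members in the RefSeq table). The median was 14 over all 16458 coding promoters of that table, of which 56.8% had a promoter peak in both libraries, and 22 over those 9353. Of coding genes with 16 to 26 CG dinucleotides, the middle range of the members, 86.2% had a promoter peak in both libraries. At a stricter limit, with peaks at or above the median height of their list, 76 members kept a promoter peak in both, beside 47.5% of coding genes.

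The promoters had ordinary heights among open coding promoters. The highest promoter peak of a member had a height of 1.73 to 16.3 in replicate 1, with a median of 6.02, and of 1.26 to 11.8 in replicate 2, with a median of 4.26. Over the 11849 coding genes with a promoter peak in both libraries, the medians were 5.73 in replicate 1 and 3.95 in replicate 2. The median member stood at percentile 53.8 in replicate 1 and 57.1 in replicate 2, where the percentile is the share of coding genes with a promoter peak in that library that were no higher. The members lay close to the middle of open coding promoters. At or above the median height were 41 members in replicate 1, beside 51.5% of coding genes with a promoter peak in both, and 48 in replicate 2, beside 52.7%. In both libraries 36 members were, beside 45.8%. The highest 10% of promoters in a library held 4 members in replicate 1, beside 10.3%, and 9 in replicate 2, beside 10.5%. With all promoter peaks of a gene summed in place of the highest, the median percentiles were 48.65 in replicate 1 and 49.15 in replicate 2, on the other side of 50. Among all peaks of a library, promoter or not, the median member stood at percentile 87.61 in replicate 1 and 87.59 in replicate 2.

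**Figure D1:**
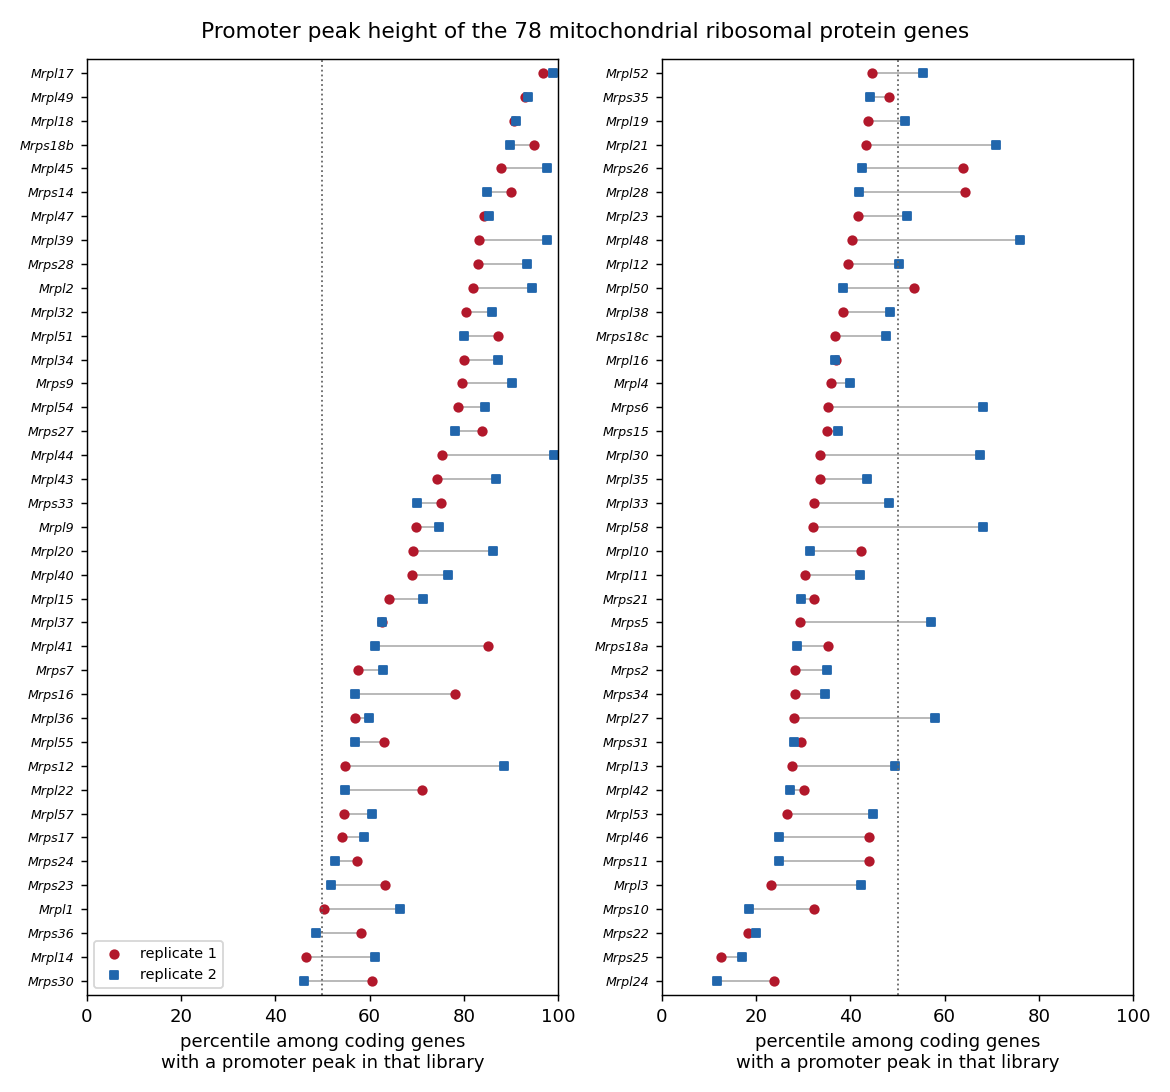
Percentile of the highest promoter peak of each of the 78 genes among coding genes with a promoter peak in that library, for replicate 1 (circles) and replicate 2 (squares), joined by a line; the dotted line is percentile 50 and genes run down in order of their lower percentile. Mrpl17 stands at the top with 96.8 and 98.9, and Mrpl24 at the bottom with 23.8 and 11.7.

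Among the 30 large-subunit genes with a bacterial counterpart, the median height was 4.94 in replicate 1 and 4.29 in replicate 2. Mrpl17 had the highest promoter of all members by its lower percentile. Its peak had a height of 16.3 in replicate 1 (chr7:105811001-105811360) and 11.6 in replicate 2 (chr7:105811001-105811240). Mrpl18 had heights of 13.0 and 7.998, at a start site that overlaps that of Tcp1, a subunit of the cytosolic chaperonin. Mrpl47 had 11.2 and 7.01, at a peak it shares with Ndufb5, a subunit of respiratory complex I. Mrpl2, which encodes a protein beside the peptidyl transferase centre, had 10.6 and 8.82. These 4 promoters stood above percentile 80 in both libraries. Mrpl24, the lowest member by its lower percentile, had heights of 2.76 and 1.26. Mrpl3, another gene for a core protein of the large subunit, had 2.69 and 3.25. Mrpl13 had 3.11 and 3.73. These 3 genes were low in replicate 1, at percentiles 23.8, 23.1 and 27.5, but Mrpl3 and Mrpl13 stood at 42.2 and 49.5 in replicate 2.

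The 21 large-subunit genes specific to mitochondria had a median height of 6.93 in replicate 1 and 4.71 in replicate 2. Mrpl49 had heights of 14.1 and 8.56, at percentiles 93.0 and 93.6. Mrpl45, whose human protein faces the inner membrane at the tunnel exit, had 12.1 and 10.3. Mrpl39 had 10.97 and 10.4. The highest value of any member in replicate 2 was that of Mrpl44, a protein with a ribonuclease III-like fold. Its heights were 9.30 and 11.8, and it is named here because of that value. At the other end were Mrpl46 with 4.80 and 2.08, Mrpl53 with 3.02 and 3.41, and Mrpl42 with 3.35 and 2.22. Heights in this class spanned 3.02 to 14.1 in replicate 1 and 2.08 to 11.8 in replicate 2, so members differed widely within 1 class.

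The 16 small-subunit genes with a bacterial counterpart had a median height of 5.43 in replicate 1 and 4.26 in replicate 2. Mrps14 led this class in replicate 1, with heights of 12.8 and 6.92. Mrps28, the relative of the bacterial mRNA-binding protein S1, led it in replicate 2, with 10.9 and 8.51. Mrps10 had 3.55 and 1.68, and Mrps11 had 4.80 and 2.08. The 10 small-subunit genes specific to mitochondria had medians of 6.32 in replicate 1 and 3.32 in replicate 2. They held both a top member and low ones. Mrps18b had 15 and 7.77. Mrps22, mutated in a human mitochondrial disease, had 2.22 and 1.76. Mrps25 had 1.73 and 1.58, the lowest height of any member in replicate 1. The order of the class medians differed between the libraries, with the small mitochondria-specific genes second in replicate 1 and last in replicate 2. Mrps36, named as ribosomal but known as a subunit of the oxoglutarate dehydrogenase complex, had 6.56 and 3.67, inside the range of the ribosomal genes.

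**Figure D2:**
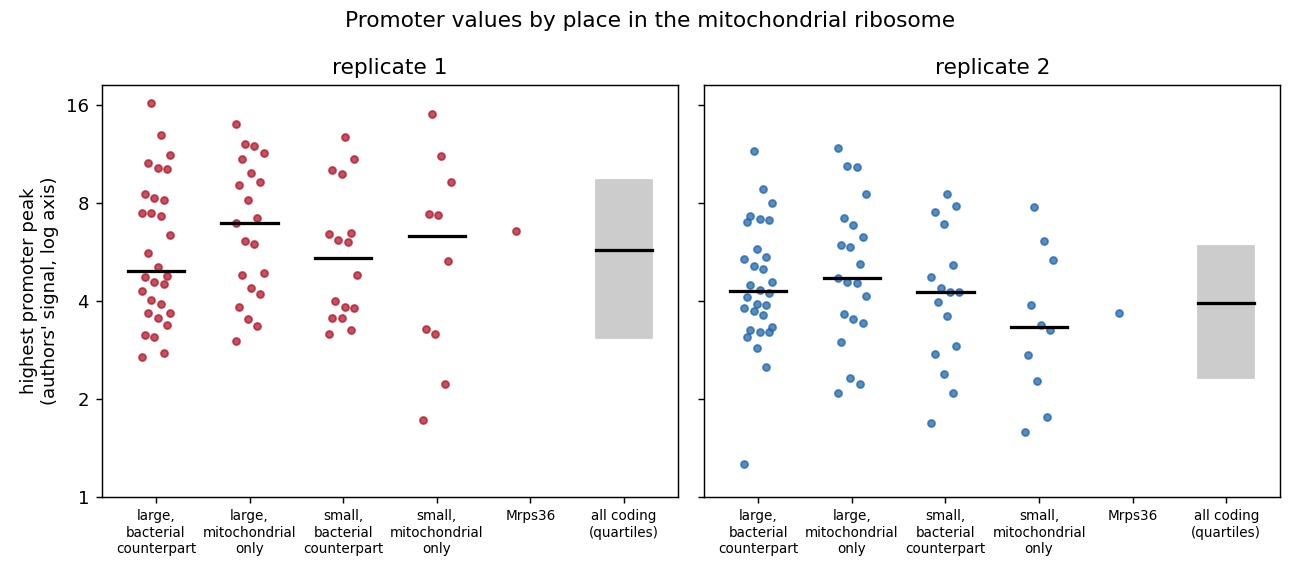
Height of the highest promoter peak (authors' signal, log axis) of each gene by class in replicate 1 (left) and replicate 2 (right); black bars are class medians, and the grey box spans the quartiles of the 11849 coding genes with a promoter peak in both libraries. The classes overlap one another and the grey box, with medians from 4.94 to 6.93 in replicate 1 and from 3.32 to 4.71 in replicate 2.

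Across members the libraries ranked promoters alike, though less tightly than over all genes. Spearman's rho of the heights was 0.76 over the 78 members and 0.90 over all 11849 coding genes with a promoter peak in both. It is given as a description, since members share their libraries. The percentile was higher in replicate 2 at 51 of 78 members, beside 51.6% of coding genes with a promoter peak in both. The widest differences all ran that way. Mrpl58, a ribosome-bound relative of release factors, stood at percentile 32.1 in replicate 1 (height 3.53) and 68.2 in replicate 2 (5.19). Mrpl48 stood at 40.4 (4.38) and 76.0 (5.87). Its highest peaks were not the same region, since they lay at different start sites of the gene. Mrpl30 stood at 33.5 (3.66) and 67.4 (5.11). Mrps12, the relative of a protein of the bacterial decoding centre, stood at 54.9 (6.14) and 88.6 (7.53). Mrps6 stood at 35.2 (3.82) and 68.0 (5.18), at a peak shared with Slc5a3. These 5 promoters were open in both libraries, and their percentiles differed by more between the libraries than those of the other members. At Mrpl58, Mrps12 and Mrps6, replicate 1 had 2 promoter peaks and replicate 2 had 1, and only the highest was ranked. Summed over promoter peaks, their heights were 5.31 and 5.19, 12.1 and 7.53, and 5.52 and 5.18. At Mrpl48 and Mrpl30 the sums were 7.89 and 11.2, and 3.66 and 5.11. Whether the division of signal into peaks made these differences was not tested. With 1 library per replicate, a difference between mice and one between library preparations cannot be told apart.

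The open region sat on the start site at most members. The highest promoter peak covered a GENCODE start site in both libraries at 60 of 78 members, beside 67.3% of coding genes with a promoter peak in both. The highest peaks of the libraries overlapped at 75 members, beside 95.1%, and the exceptions were Mrps5, Mrpl36 and Mrpl48. At 8 members the highest peak covered no GENCODE start site in either library. In Mrpl39 it lay at the RefSeq start, 498 bp downstream of the GENCODE one, where it held the NRF1 match shown above. In Mrps18b its middle lay at −511 bp in replicate 1 and −441 bp in replicate 2, near the start of its neighbour Ppp1r10, and a further peak nearest its own start had a height of 6.97 in replicate 1. Mrps12 and Mrpl51 likewise had their highest peak upstream, with middles at −420 and −435 bp in replicate 1 and at −290 and −405 bp in replicate 2. In replicate 1 a further peak covered the start of Mrps12, with a height of 6.00 against 6.14 for the highest one. In replicate 2 Mrps12 had 1 promoter peak, 121 bp from its start. The peaks nearest the start of Mrpl51 had heights of 6.16 and 3.85, against 11.97 and 6.31 for the highest ones. For these genes the height belongs to the neighbour's start site as much as to the member's own.

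**Figure D3:**
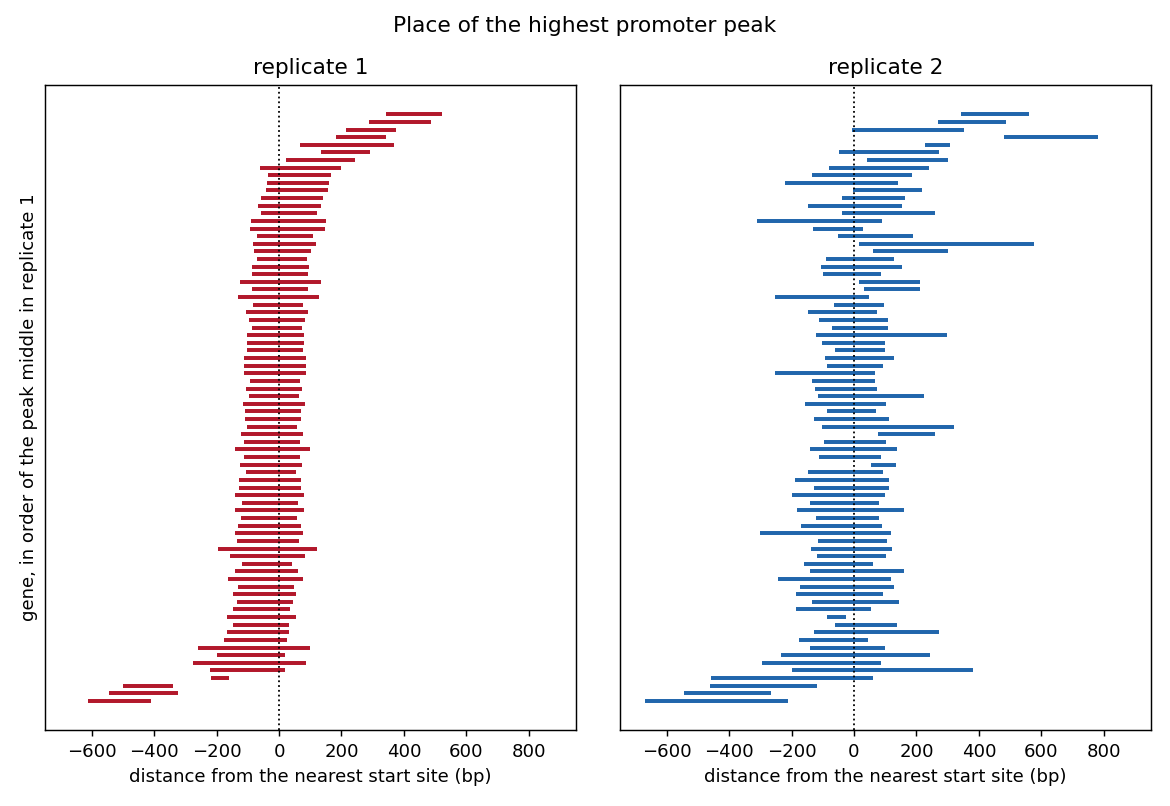
Extent of the highest promoter peak of each gene (horizontal bars) around its nearest GENCODE start site (dotted line, distance in bp, negative upstream) in replicate 1 (left) and replicate 2 (right), with genes in the same order in both. Bars cover the start site at 67 genes in replicate 1 and at 63 in replicate 2, and a few lie wholly to one side.

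Many members shared their open promoter with another gene. At 29 of 78 members the highest peak of both libraries also lay within 500 bp of a start site of another coding gene, beside 17.4% of coding genes with a promoter peak in both. At 22 members the pair was head-to-head, with the genes on opposite strands and pointing apart, beside 13.3%. The start sites of these pairs were 26 to 464 bp apart, with a median of 78 bp. Mrpl46 and Mrps11, of the large and small subunit, share 1 promoter, with start sites 30 bp apart and the same peak of height 4.80 in replicate 1 and 2.08 in replicate 2. Several partners act in mitochondria themselves. Mrpl43 (9.11 and 7.22) lies 116 bp from Twnk, the helicase that unwinds mitochondrial DNA. Mrps12 (6.14 and 7.53) lies 182 bp from Sars2, the mitochondrial seryl-tRNA synthetase. Mrps27 (11.1 and 6.11), a pentatricopeptide repeat protein, lies 81 bp from Ptcd2, another protein of that family. Mrpl49 lies 59 bp from Fau, a cytosolic ribosomal protein made as a fusion with a ubiquitin-like protein.

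Other head-to-head partners act elsewhere in the cell or have roles not described here. Mrpl32 (10.3 and 7.08) pairs with Psma2, a proteasome subunit. Mrpl40 (8.17 and 5.95) pairs with Hira, a histone chaperone, and Mrpl51 with the condensin gene Ncapd2. Mrps18b pairs with Ppp1r10, Mrpl2 with the kinesin light chain gene Klc4 and Mrpl54 (9.94 and 6.86) with Apba3. Mrpl37 (7.23 and 4.71) pairs with Cyb5rl and Mrpl57 (6.10 and 4.54) with Ska3. A shared peak cannot be assigned to either gene of a pair. The 22 head-to-head members had a median percentile of 54.7 in replicate 1 and 69.1 in replicate 2, and the 49 members alone at their peak had 48.1 and 51.6. Over all coding genes the medians were 69.0 and 69.5 for 1571 head-to-head genes, and 48.1 and 48.7 for 9792 genes alone at their peak. Head-to-head promoters had the higher medians among members and among all genes.

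Footprints marked where the open promoters were protected. The members' promoter peaks held 303 footprints in replicate 1 and 421 in replicate 2. Of the replicate 1 footprints, 224 overlapped a replicate 2 footprint by at least 50% of the shorter one, and these are called shared. At least 1 shared footprint was found at 75 of 78 members, beside 91.8% of coding genes with a promoter peak in both. The exceptions were Mrpl34, Mrpl53 and Mrps18a. The median was 3 shared footprints per gene both for members and for all these coding genes. Mrpl17 and Mrps18b had the most, with 8 each, followed by Mrps36 with 6. Shared footprints were 7 to 42 bp wide, with a median of 13 bp.

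The members' shared footprints lay nearer the start site than those of coding genes in general. Their middles had a median position of −19 bp from the nearest start site, against −45 bp over all 33534 shared footprints of coding genes. From 50 bp upstream to 25 bp downstream lay 112 of the 224, or 50%, against 33.1% over all coding genes. Upstream of the start site lay 63.0% of the members' shared footprints, against 72.0%. Footprints were counted in promoter peaks only, and the members' highest promoter peaks also lay nearer the start site. The middles of these peaks had a median position of −17 bp in replicate 1 and −1.5 bp in replicate 2. Over all coding genes with a promoter peak in both, it was −38 and −25 bp. Whether the place of the peaks made the difference in footprints was not tested. Footprints of 1 promoter are not independent of each other, and no test was made.

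**Figure D4:**
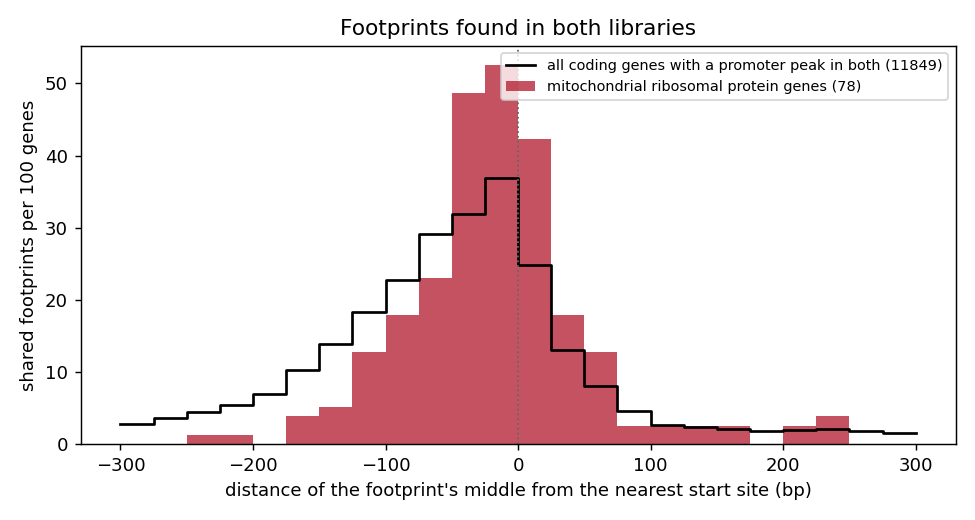
Shared footprints per 100 genes in bins of 25 bp by the distance of the footprint's middle from the nearest start site (negative upstream), for the 78 mitochondrial ribosomal protein genes (bars) and all 11849 coding genes with a promoter peak in both libraries (line). The bars exceed the line in each bin from −50 to 75 bp, where the highest bar reaches 52.6 against 36.9, and lie below it in each bin further upstream.

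Motifs were searched as exact letters on both strands, from 250 bases before to 50 after the RefSeq start, in the 69 members of the RefSeq table. Not in the table were Mrpl4, Mrpl13, Mrpl15, Mrpl19, Mrpl38, Mrpl54, Mrps28, Mrps34 and Mrps35. The ETS motif CCGGAAG was found at 25 members, or 36.2%, beside 12.3% of all coding promoters and 19.2% of those with a promoter peak in both libraries. Of its 30 matches, 12 lay in shared footprints, or 40%, against 26.8% of the matches in coding promoters with a peak in both. Wholly inside a shared footprint lay 6 of the 30, or 20%, against 16.9%. Examples, some only partly inside the footprint, are shown with 10 bases on either side, where the letters CTTCCGG are the motif on the other strand. They lie at chr9:105053239-105053265 (plus strand), chr5:31613938-31613964 (plus strand), chr14:54426852-54426878 (plus strand), chr14:54426901-54426927 (plus strand), chr14:57826233-57826259 (plus strand) and chr11:88204393-88204419 (plus strand).
Mrpl3: gagaaacggaCCGGAAGtggcccggct
Mrpl33: cgcgcatgccCCGGAAGtagtcgttga
Mrpl52: aagatgtcggCTTCCGGttttcccggc
Mrpl52: gccacgcccaCTTCCGGttcccttgct
Mrpl57: cccagagagaCCGGAAGcagcgcgccg
Mrps23: gccgcttccgCTTCCGGtaacagcccg

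The ETS matches lay close to the start site, with a median first base at −16.5 bp for members and −34 bp for coding promoters with a peak in both. Median heights were close in members with and without the motif. The median height was 6.14 in replicate 1 and 4.32 in replicate 2 for the 25 members with a match, and 6.02 and 4.33 for the 44 without one.

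The NRF1 motif CGCATGCG, which reads the same on both strands, was found at 7 members, or 10.1%, beside 2.66% of all coding promoters and 4.23% of those with a promoter peak in both. From 100 bases before to 50 after the start it was found at 4 members. Of the 8 matches, 6 lay in shared footprints, or 75%, against 81.1% of matches in coding promoters with a peak in both. The other 2 were a second match in Mrpl32 and the match in Mrps18b. Members with the motif had the higher median height. It was 10.3 in replicate 1 and 7.08 in replicate 2, against 5.79 and 4.26 for the 62 members without it. Those 62 lack these exact letters, but some may hold other forms of the motif, as Mrpl33 holds the variant GCATGCGC. The 6 members shown above covered a wide range. Mrpl17 had 16.3 and 11.6, Mrpl39 had 10.97 and 10.4, and Mrpl32 had 10.3 and 7.08. Mrpl22 had 8.52 and 4.10, and Mrpl9 had 8.31 and 5.77. Mrpl10 had 4.59 and 2.50, below the median of all members in both libraries. Mrps18b, also counted in the median, had 15 and 7.77, at a peak near the start of its neighbour Ppp1r10. With 7 genes this is a description of these promoters.

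The YY1 motif AAGATGGCG was found at 8 members, or 11.6%, beside 2.04% of all coding promoters and 3.37% of those with a promoter peak in both. It began at or after the start site in 6 of 8 members' matches, against 61.6% of the 328 matches in coding promoters with a peak in both. None of the 8 matches lay in a shared footprint, against 15.2% of those 328. Members with this motif spanned heights from 3.35 at Mrpl42 to 11.1 at Mrps27 in replicate 1. In replicate 2 they spanned 2.08 at Mrps11 to 6.11 at Mrps27. One or more of the NRF1, ETS and YY1 motifs was found at 35 of the 69 members, or 50.7%, beside 16.0% of all coding promoters and 25.1% of those with a promoter peak in both.

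Of the other motifs, most were near or below their share in open promoters, meaning coding promoters with a peak in both libraries. GGGCGG of SP/KLF factors was found at 34 members, or 49.3%, beside 48.1% of all and 67.7% of open coding promoters. CCAAT, the NFY motif, was found at 27, or 39.1%, beside 38.7% and 39.3%. CAGCTG, an E-box that MyoD can bind, was found at 11, or 15.9%, beside 15.3% and 14.6%. TATAAA was found at 4, or 5.80%, beside 12.9% and 6.17%. TGACG, the core of the CRE motif, was found at 29, or 42.0%, beside 24.4% and 33.3%. The full TGACGTCA was found at Mrpl16 and Mrpl49 only, in a shared footprint at each. It stood beside 2.44% and 3.56%. CACGTG, the E-box of USF and MYC, was found at 5 members, or 7.25%, beside 8.12% of all and 10.7% of open coding promoters. In shared footprints lay 31 of 64 SP/KLF matches of the members, or 48.4%, against 35.95% of those in open promoters. For CAGCTG it was 3 of 12, or 25%, against 8.33%, and for TATAAA 1 of 4, or 25%, against 10.7%. The members' share was lower for CCAAT (12.5% against 15.9%), TGACG (21.95% against 31.2%) and CACGTG (20% against 21.45%). Related forms, which share letters with the motifs above, were searched too. GCATGCGC, a variant of the NRF1 motif, was found at 8 members, or 11.6%, beside 3.76% and 5.90%. AAGATGG, the core of the YY1 motif, was found at 13, or 18.8%, beside 6.40% and 7.42%. No member held the letters TCAAGGTCA (ERR), beside 0.340% of all and 0.214% of open coding promoters. None held ACTACAATT (ZNF143), beside 0.583% and 0.877%, or CTATTTTTA (MEF2), beside 0.407% and 0.278%. Each of these is 1 exact string, rare in all coding promoters, and other forms of these motifs were not searched. Their absence from 69 members therefore does not show that sites of these factors are lacking. A match is a run of letters, and whether a factor was bound was not measured.

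**Figure D5:**
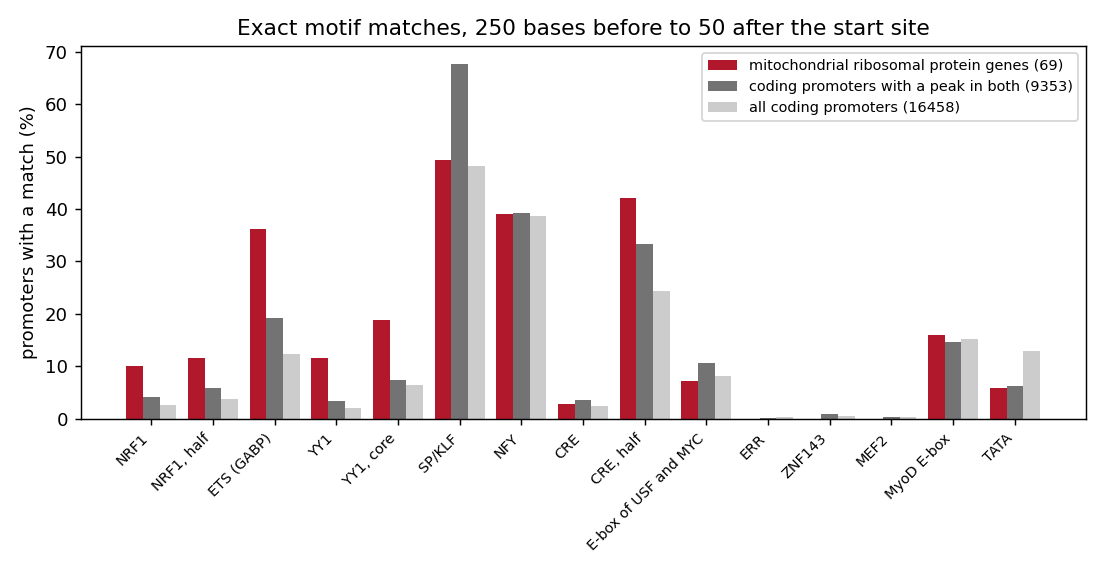
Share of promoters with an exact match to each of 15 motifs, for the 69 mitochondrial ribosomal protein genes in the RefSeq table (red), the 9353 coding promoters with a peak in both libraries (dark grey) and all 16458 coding promoters (light grey). The red bars stand above both grey bars for NRF1 (10.1%), ETS (36.2%) and YY1 (11.6%), and below the dark grey one for SP/KLF (49.3%). They also stand above both for the related forms of NRF1 (11.6%) and YY1 (18.8%), the CRE core (42.0%) and, narrowly, the MyoD E-box (15.9%).

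Most members had no replicated open region away from the promoter. A distal peak, over 1 kb from every annotated start site and within the gene or 10 kb on either side, was found in overlapping places in both libraries at 17 of 78 members, beside 32.2% of all coding genes. This count was 33 with the longer peak lists, 27 in each library alone, 11 over 2500 bp from start sites and 10 with a flank of 5 kb. The members are short genes, with a median length of 7900 bp. Of coding genes from 4494 to 12530 bp long, the middle range of the members, 21.8% had such a peak. In either library a distal peak was found at 35 members, beside 47.4% of coding genes. The 17 members had 27 replicated distal peaks, with a median height of 2.65 in replicate 1 and 1.77 in replicate 2, below the members' promoters. Of these, 7 lay within the member's own body and 12 overlapped no coding gene.

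Mrpl45 had the most, with 4, of which 3 lay upstream at −6156, −5356 and −4335 bp from the start site. The highest of them had heights of 3.63 and 2.04, at chr11:97309461-97309660 in replicate 1. Mrps27 had 3, all inside the gene. The first was the highest distal peak of any member in replicate 1, with heights of 8.24 and 3.63, at chr13:99353201-99353500 in replicate 1. Mrps18a, without a shared promoter footprint, had 3, and the highest in replicate 1 had heights of 3.67 and 1.81. Mrpl58 had 2, with heights of 5.66 and 6.09 for the higher one, against 3.53 and 5.19 at its promoter. Mrpl33 and Mrps31 had 2 each. A peak of 8.19 and 3.44 lay upstream of Mrps18b, inside Ppp1r10, and one of 6.34 and 2.87 lay downstream of Mrpl37, inside Ssbp3. Distance alone ties these peaks to the members, and several lie in other genes.

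Other genes of mitochondrial translation and transcription, which carry other symbols, gave a like picture. A promoter peak in both libraries was found at 58 of 60, beside the same 54.2% of coding genes. The exceptions were Gadd45gip1, a large-subunit protein, and Mtg2, a GTPase of ribosome assembly. All 12 translation factors, 17 tRNA synthetases and 7 transcription genes had one, as did 18 of 19 assembly genes and 4 of 5 further subunits. Their median percentiles were 57.4 in replicate 1 and 61.9 in replicate 2, near those of the Mrpl and Mrps genes. The spread was wide, from percentiles 5.43 and 14.8 at Mtrf1, a release factor gene with heights of 1.12 and 1.45, upward. The genes named next are those with the highest lower percentile in each role. Tfb2m, a mitochondrial transcription factor, had heights of 12.1 and 8.32, and its relative Tfb1m had 11.7 and 6.84. Noa1 and Malsu1, both of ribosome assembly, had 11.5 and 9.52 and 9.53 and 5.86. Mtrf1l, a relative of Mtrf1, had 12.3 and 7.95, and Taco1, a translational activator, had 7.77 and 5.55. Of the synthetases, Fars2 had 10.4 and 7.14 and Vars2 had 9.35 and 9.17. The subunit genes Aurkaip1 and Chchd1 had 8.90 and 5.16 and 5.24 and 5.24. Tfb2m shares its peak with Cnst, Noa1 with Polr2b and Fars2 with Lyrm4, so these heights cannot be assigned to either gene. Sars2 belongs to these genes of mitochondrial translation and shares its peak with Mrps12.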

How the data were processed

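The authors deposited, for each of 2 DNase-seq libraries on mm10, a shorter and a longer peak list, called per library per the file headers, whose signal values are peak heights of unstated scaling. The deposited per-base q-value tables list runs of bases below 0.05, and the deposited footprint lists carry 1 constant score, so footprints were used by position. The aligner, the peak caller and the footprint caller were not given in the sources used here, and read depth is unknown, so no error can be put on a single height. At the members' promoters the lowest q-value was at most 4.41e-10 in replicate 1 and 8.51e-06 in replicate 2.

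Genes and start sites (41438) came from GENCODE M21, promoter sequences from RefSeq on GRCm38.p6. A gene's height is its highest peak within 500 bp of a basic start site. A footprint lay in a promoter peak if its middle base did, and a motif match in a footprint if 50% of it did. A shared footprint is a replicate 1 footprint in such a peak that overlaps any replicate 2 footprint. The functions were tested on simulated data. There is 1 group, so no contrast and no p-value is given. The members and lists were chosen with earlier results of these data known.

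Named were the 10 highest and 10 lowest members by lower percentile, 12 members in head-to-head pairs (Mrpl46 and Mrps11 stand among the lowest), the 5 members whose percentiles differed most, those with most shared footprints, distal peaks or motifs in footprints, and the leading companion genes. Mrpl44, the further members of the printed stretches Mtrf1 and those named as exceptions to a count were chosen after their values were seen. Python 3.11.15, numpy 2.4.6, scipy 1.17.1 and bedtools 2.31.1 were used. Alternatives changed the window, peak list, overlap, distance, flank, start-site set and motif window.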

Additional observations from a re-analysis of the deposited data

How the results depend on the processing

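All 78 members had a promoter peak in both libraries with the longer lists, a window of 1000 bp, the start sites of all transcripts or a single library, 76 had one with a window of 250 bp and 77 with overlapping peaks required. Counts of shared promoters and of ETS, YY1 and SP/KLF matches stayed within 1.5 times under each alternative run. Shared footprints numbered 224 to 242 and Spearman's rho was 0.76 to 0.80. The median percentile of the members changed to 48.65 in replicate 1 and 49.15 in replicate 2 with summed peaks, to 57.55 and 60.76 with the longer lists and to 87.61 and 87.59 among all peaks. Members with a distal peak numbered 11 over 2500 bp from start sites, 10 with a flank of 5 kb and 33 with the longer lists, beside 25.9%, 26.2% and 45.1% of coding genes. Replicate 1 alone gave 27, beside 42.6%, and replicate 2 alone 27, beside 38.7%. Single libraries held 303 to 421 footprints. The NRF1 motif was found at 4 members from 100 bases before to 50 after the start. With a match required to lie wholly inside a shared footprint, a rule chosen after seeing the data, NRF1 matches there stayed at 6 and ETS matches numbered 6. Why these changed was not tested. No paired analysis was possible because there is 1 group. Peak heights carry no read depth, so differences between members of similar height cannot be judged.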
